A study of Mus musculus with 6 samples.

Results

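Mast cells, basophils and eosinophils are granule-bearing white blood cells that arise in the bone marrow, and their RNA was followed here through 10 genes in sorted megakaryocyte-erythroid progenitors of the mouse. The 10 genes, Cpa3, Mcpt8, Prss34, Ms4a2, Fcer1a, Gzmb, Hdc, Prg2, Epx and Cma1, were taken by symbol from the 55487 genes of the count table, and all 10 were found once. The progenitors, from which red cells and platelets develop, were sorted from bone marrow of wild-type C57BL/6 mice aged 8 weeks, either control mice (3 libraries) or mice fasted for 6 h (3 libraries). The study asked how short fasting acts on the formation of red blood cells. Nothing in the labels says how many mice a library holds or which surface markers the sort used, so p-values measure the spread between libraries, which may be technical.

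Mast cells and basophils bind immunoglobulin E through a high-affinity receptor, whose alpha chain (Fcer1a) holds the antibody, whose beta chain (Ms4a2) amplifies the signal and whose shared gamma chain (Fcer1g) starts it. They store histamine, made by histidine decarboxylase (Hdc), together with proteases such as carboxypeptidase A3 (Cpa3), chymase (Cma1) and the basophil proteases Mcpt8 and Prss34. Eosinophils store major basic protein (Prg2) and eosinophil peroxidase (Epx). Gzmb encodes granzyme B, a protease best known from cytotoxic lymphocytes. In the marrow, early progenitors of mast cells, basophils and eosinophils express the transcription factors Gata1 and Gata2, as erythroid and megakaryocyte progenitors do.

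Among the 10 genes, RefSeq's promoter table (GRCm38.p6) held 9, all but Prg2. A GATA word (AGATAA or AGATAG, or else TGATAA or TGATAG, on either strand) lay in the 250 bases upstream of the start in 6 of the 9 promoters, against 26.5% of 32851 promoters searched. For RUNX (TGTGGT) there were 4 of 9 against 14%, for C/EBP (TTNNGNAA) 1 of 9 against 36.8%, and for PU.1 (GAGGAA) 2 of 9 against 23.3%, also on both strands. Such matches describe letters and say nothing of binding. The 3 promoters below belong to the genes whose opposite ranking in 1 control library is described further on: Cpa3 (chr3:20242182-20242431, minus strand) and Ms4a2 (chr19:11623720-11623969, minus strand) were highest there, and Epx (chr11:87875537-87875786, minus strand) was lowest. Capitals mark GATA words, and each sequence ends at the base before the start.
Cpa3: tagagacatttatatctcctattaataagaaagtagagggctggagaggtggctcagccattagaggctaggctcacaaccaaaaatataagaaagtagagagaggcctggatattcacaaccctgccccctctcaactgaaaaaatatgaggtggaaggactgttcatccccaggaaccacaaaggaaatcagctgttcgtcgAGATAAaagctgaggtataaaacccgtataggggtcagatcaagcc
Ms4a2: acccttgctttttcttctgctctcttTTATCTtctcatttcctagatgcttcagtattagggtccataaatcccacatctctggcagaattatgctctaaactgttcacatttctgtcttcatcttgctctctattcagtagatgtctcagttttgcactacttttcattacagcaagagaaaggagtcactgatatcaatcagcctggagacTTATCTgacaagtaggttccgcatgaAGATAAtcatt
Epx: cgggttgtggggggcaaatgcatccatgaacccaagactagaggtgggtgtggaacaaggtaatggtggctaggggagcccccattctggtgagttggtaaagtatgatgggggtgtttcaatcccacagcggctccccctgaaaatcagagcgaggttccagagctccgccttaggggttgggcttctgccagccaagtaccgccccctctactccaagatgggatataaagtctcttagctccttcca
The Cpa3 word begins 46 bases upstream of the start, the Ms4a2 words begin 224, 37 and 11 bases upstream, and the Epx stretch holds no GATA word. Prss34 and Fcer1a, whose promoters hold a GATA word, were also lowest in that control library. Mcpt8, whose promoter holds none, was not. A link between these words and the level in that library was not tested. The starts of Cpa3, Ms4a2 and Epx are the same in the GENCODE M21 annotation. In the direction of transcription, the RefSeq start minus the GENCODE start was 621 bases for Hdc and 76 for Mcpt8. It was -74 for Gzmb and -15 for Fcer1a. The Hdc stretch, counted among the 6 with a GATA word, thus lies inside the GENCODE gene.

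Depth and background differed between the groups. Libraries held 12797144 to 30246110 counts, with 1.72 times the depth in control. Genes of odorant and vomeronasal receptors (1466), which belong to sensory neurons, took 8.99 to 14.7 counts per kilobase of exon in control and 14.2 to 16.0 in fasted libraries, which serves as the background of each library. A mean of 5 times this background is called the 5-fold line, and genes at or above it are said to be above it. All 9 erythroid and 4 of 7 megakaryocyte markers were above the 5-fold line, while Vwf, Gp6 and Gp1bb were not. All 11 markers of granulocyte-monocyte progenitors and neutrophils were too, and their summed CPM (counts scaled to a common library size with TMM factors) was 4376 to 17553 in control against 1166 to 3198 in fasted libraries, with no marker at 0 in all libraries. In bulk samples like these, fewer cells of a type and less RNA per cell cannot be told apart.

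On the mean of all 6 libraries, 7 of the 10 genes stood above the 5-fold line and 3 did not. By group, 8 reached 5 times the background in control and 5 in fasted libraries: Ms4a2 (20.7 in control, 4.49 in fasted), Epx (8.60 and 3.71) and Gzmb (5.20 and 1.81) did so in control alone. This multiple also falls where background is a larger part of a library. Taken over all exons, background made up 3.9 to 8.6% of counts in control and 11.5 to 14.6% in fasted libraries. Prss34 went from 7.48 to 6.27 times while its mean went from 5.42 to 6.49 CPM. How many of all genes reached 5 times in each group was not counted. In counts per kilobase, Cpa3 was at 81.9 times the receptor level, Prg2 at 77.5, Mcpt8 at 25.7, Hdc at 20.8, Ms4a2 at 10.6, Prss34 at 6.99 and Epx at 6.30. Just under it lay Fcer1a at 3.88 times, followed by Gzmb at 3.22 and Cma1 at 2.16. In fasted libraries Prg2 (44.1) was above Cpa3 (29.2) and Hdc (11.2) above Mcpt8 (9.12). Every pair of neighbours in this order overlapped in range across libraries, so neighbouring ranks did not differ beyond their spread. All 1466 receptor genes were below Cpa3, Prg2, Mcpt8, Hdc, Ms4a2 and Prss34, and 1 was at or above Epx, whereas 14 reached Fcer1a, 31 reached Gzmb and 114 (7.78%) reached Cma1.

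**Figure D1:**
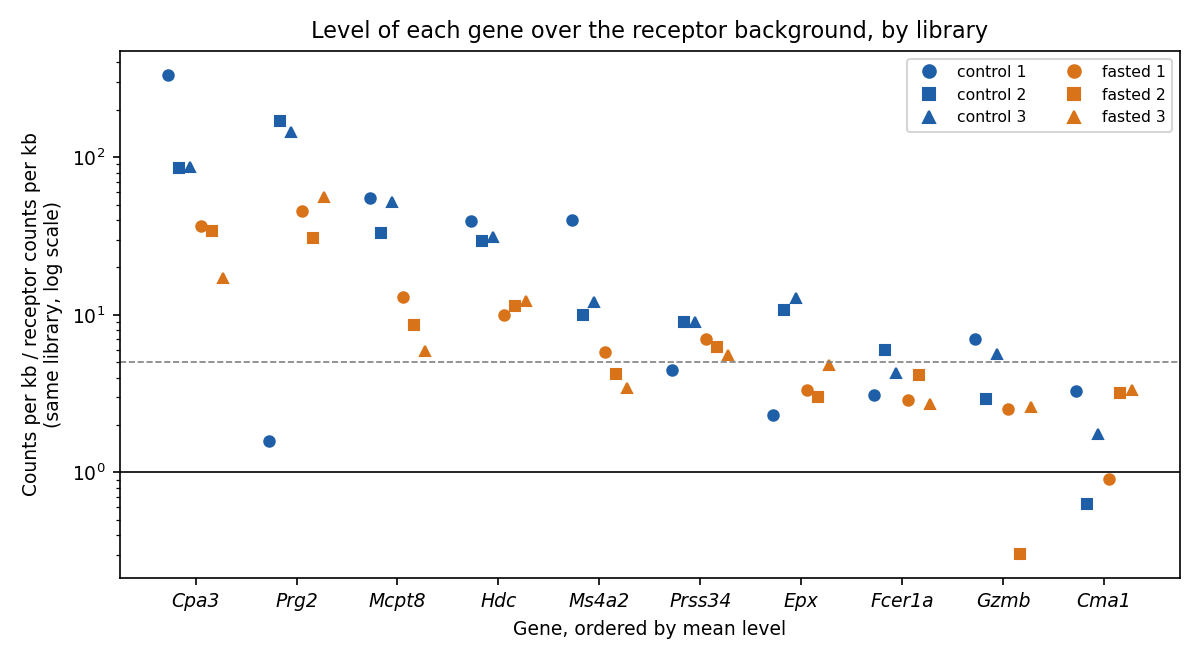
Counts per kilobase of the 10 genes divided by the receptor counts per kilobase of the same library (log axis), 1 point per library. The solid line is the background itself and the dashed line 5 times it; Cpa3 reached 334 times in control 1, and Prg2 fell to 1.59 times there.

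The mast cell and basophil genes Cpa3, Mcpt8, Hdc and Ms4a2 were lower in fasted libraries when scaled over all tested genes. Cpa3 (ENSMUSG00000001865.2, chromosome 3, 20215620 to 20242181), which encodes the carboxypeptidase of mast cell granules and is also transcribed in basophil and mast cell progenitors, was counted 4552, 1699 and 1921 times in the control and 788, 821 and 386 times in the fasted libraries (1, 2, 3). After TMM scaling these were 199.7, 75.9 and 91.6 CPM against 50.7, 42.9 and 20.2 CPM. The groups did not overlap, and control library 1 stood far above every other library. The mean was 122 ± 67.4 CPM in control and 37.9 ± 15.8 in fasted libraries (SD, n = 3 per group). The log2 change was -1.69 (SE 0.40, edgeR adjusted p 0.0437). Mcpt8, a protease whose transcript is used as a basophil mark, was at 21.7, 19.3 and 36.4 CPM in control and 11.8, 7.16 and 4.55 CPM in fasted libraries, from 87 to 763 counts. Every control library was above every fasted one, as it also was per library total without TMM. It averaged 25.8 ± 9.26 CPM in control and 7.83 ± 3.65 in fasted libraries (SD, n = 3 per group), and its log2 change was -1.72 (SE 0.33, edgeR adjusted p 0.0240).

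Hdc (ENSMUSG00000027360.5, chromosome 2, 126593667 to 126619299), the enzyme that makes histamine, was read from 906 to 2917 counts and had 99.6, 109.6 and 139.1 CPM in control and 58.2, 61.2 and 60.4 CPM in fasted libraries. The fasted libraries lay close together and below the lowest control library. The means were 116 ± 20.6 and 59.9 ± 1.52 CPM (SD, n = 3 per group), with a log2 change of -0.95 (SE 0.23, edgeR adjusted p 0.0339). Ms4a2 (ENSMUSG00000024680.12, chromosome 19, 11615523 to 11623719), the beta chain of the immunoglobulin E receptor, was read from 143 to 1012 counts and was at 44.4, 16.4 and 23.7 CPM in control and 15.0, 9.88 and 7.48 CPM in fasted libraries. Here control library 2 came close to fasted library 1, although the groups did not overlap. The means were 28.2 ± 14.5 and 10.8 ± 3.86 CPM (SD, n = 3 per group), with a log2 change of -1.39 (SE 0.34, edgeR adjusted p 0.0385).

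These 4 genes (Cpa3, Mcpt8, Hdc and Ms4a2) were the ones of the 10 that passed an adjusted p under 0.05 in edgeR's quasi-likelihood test, all lower, where 3.82% of all 36508 genes tested were called lower. That is 1393 genes, and leaving out 1 library gave 7 (without fasted library 3) to 3903 (without control library 3). Above the 5-fold line, 12.9% of genes were called lower, and the median of that class was -0.50 (log2) in the same fit against -0.88 for the 10 genes and 0.32 for all genes tested. The median of the members was -0.47 in the restricted fit described next, -0.40 with library totals as the scale and -0.52 without control library 3. Some markers of other cells were lower in fasted libraries too. The 11 granulocyte-monocyte and neutrophil markers did not overlap between the groups in summed CPM after TMM scaling (values above). Their median log2 change was -2.47, and 1 was called lower. Megakaryocyte (426 to 673 against 182.5 to 336 CPM) and monocyte sums (313 to 527 against 96.5 to 253 CPM) did not overlap either. After TMM, 47.6% of genes above the line did not overlap in this direction. Per library total without TMM, every granulocyte-monocyte and neutrophil marker but Ms4a3 overlapped, as did every monocyte marker but Ccr2. The sums were not taken on that scale. Erythroid, B cell, T cell and stem cell sums overlapped. The natural killer cell sum was higher in fasted libraries, but its 6 markers all lie under the 5-fold line. Tested genes under that line had a median log2 change of 0.53 in the fit of all tested genes. After TMM, 19.8% of all tested genes had every fasted library above every control library. Among control libraries the neutrophil sum was lowest in library 1, where Cpa3 and Ms4a2 were highest. The part of these markers in the result was not tested. No member was called higher (1.15% of genes tested), by edgeR, DESeq2 or limma-voom. In the TMM-scaled edgeR fit of all tested genes, none of those above 0 had an unadjusted edgeR p under 0.05.

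The calls depended on the scaling. In a fit scaled and run on the 10641 tested genes above the 5-fold line (the restricted fit), 0 of the 7 genes present passed (0.0% of all genes were called in either direction), while Cpa3, Mcpt8 and Ms4a2 had an unadjusted edgeR p under 0.05. Ms4a2 and Epx entered that fit through their control level, so their lower fasted value is partly set by the filter and is no support. There Cpa3 had a log2 change of -1.15 (SE 0.39) and Mcpt8 of -1.26 (SE 0.41), with edgeR adjusted p of 0.193 and 0.170. Ms4a2 was at -0.84 (SE 0.35) and Hdc at -0.47 (SE 0.21), with edgeR adjusted p of 0.238 and 0.253. With the factors of those genes applied to all 36508, Mcpt8 alone passed as lower (edgeR adjusted p 0.0401), where 0.701% of genes were called lower. With library totals as the scale it was again Mcpt8 alone (edgeR adjusted p 0.0391), with 0.797% of genes called lower. Without fasted library 3 none of the 10 passed in the fit of all tested genes, and the 4 genes had edgeR adjusted p of 0.181. Their log2 changes there were -1.40 (Cpa3), -1.48 (Mcpt8), -1.19 (Ms4a2) and -0.98 (Hdc), and 7 of 38327 genes were called lower. With all 6 libraries Cpa3, Mcpt8, Hdc and Ms4a2 passed in DESeq2 and in limma-voom too. Both of these also scale over all tested genes, so they do not address the scaling. DESeq2 called 4820 of 25183 genes with an adjusted p lower, and limma-voom 1044 of 36508.

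**Figure D2:**
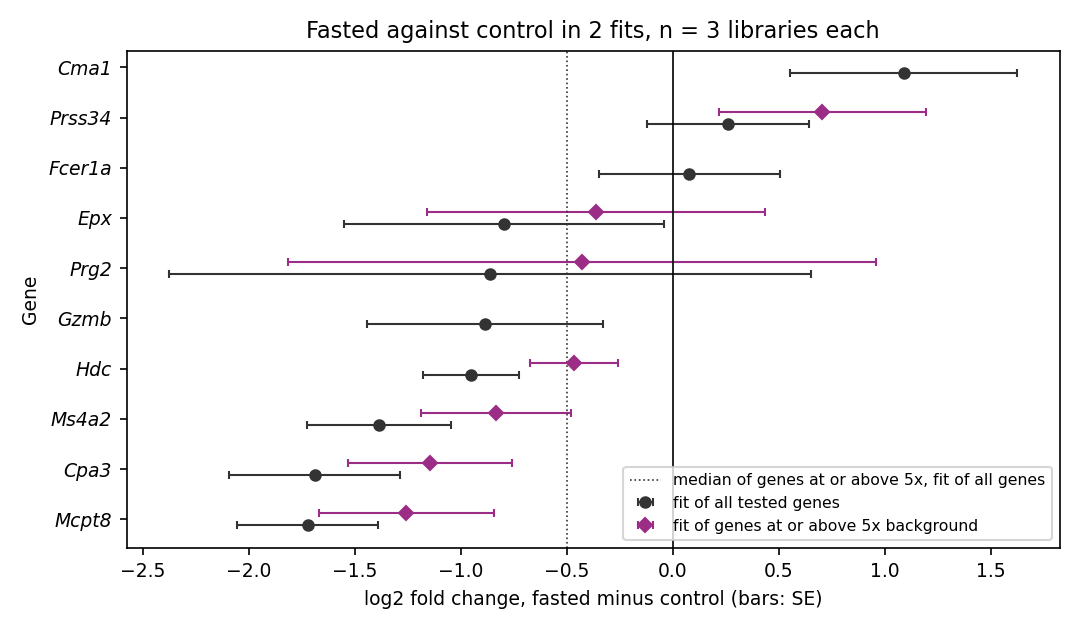
Log2 change of fasted minus control libraries with its SE for each gene, in the fit of all 36508 tested genes (circles) and in the restricted fit (diamonds, 7 genes). The dotted line at -0.50 is the median of genes above the 5-fold line in the first fit; the circles of Mcpt8, Cpa3, Ms4a2 and Hdc lie left of it by more than 1 SE.

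Groups of 2 of the 10 genes were apart on both scales. In CPM after TMM, 4 of 10 had every fasted library below every control library, as 15.1% of all tested genes and 47.6% of those above the line did, and 0 of 10 the reverse (19.8% and 3.55%). In counts per library total 2 of 10 did so, Cpa3 and Mcpt8, against 4.4% and 14.7%, and 0 of 10 had every fasted library above every control library, against 39.1% and 13%. Per library total, Hdc and Ms4a2 overlapped between the groups.

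The eosinophil granule genes followed another pattern, in which 1 control library stood apart. Prg2, the major basic protein, was counted 12, 1869 and 1783 times in the control and 546, 411 and 694 times in the fasted libraries (1, 2, 3). Control library 1, the deepest, was thus the lowest: the 12 counts (exact 95% Poisson interval 6.20 to 21, which covers counting error only) compare with 7.53 expected from the receptor background over its length. Scaled, Prg2 was at 0.526, 83.5 and 85.0 CPM in control and 35.1, 21.5 and 36.3 CPM in fasted libraries. Epx, the eosinophil peroxidase, was read from 57 to 514 counts and was at 2.5, 17.2 and 24.5 CPM in control and 8.36, 6.90 and 10.2 CPM in fasted libraries. For both genes, control libraries 2 and 3 lay above all fasted libraries and control library 1 below all of them.

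Neither gene passed with all libraries. The log2 change was -0.86 (SE 1.51, edgeR adjusted p 0.729) for Prg2 and -0.80 (SE 0.75, edgeR adjusted p 0.507) for Epx. Without control library 1 the values were -1.46 and -1.31, and both passed in the fit of all tested genes (edgeR adjusted p 0.000347 and 0.0071). In that fit 5 of the 10 genes were called lower, namely Cpa3, Mcpt8, Hdc, Prg2 and Epx, where 858 of all 38248 genes tested were. Ms4a2 no longer passed there (edgeR adjusted p 0.060). The library left out is the 1 where Prg2 and Epx were low. In the restricted fit without the same library, edgeR adjusted p was 0.162 for Prg2 and 0.207 for Epx.

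Ratios within a library set the genes apart. Per kilobase, Cpa3 over Prg2 was 0.307 to 1.10 in 5 libraries, and in control library 1 Cpa3 was at its highest while Prg2 was near the background, so no ratio is given there. Cpa3 over Ms4a2 was 5.01 to 8.56 in the 6 libraries, and Cpa3 over Mcpt8 was 1.66 (control library 3) to 6.06 (control library 1). Prg2 over Epx was 10.2 to 15.9 in the 5 libraries other than control library 1, where Prg2 was not distinguishable from the background at this depth and Epx, with 57 counts (exact 95% Poisson interval 43.2 to 73.9), was above the 24.6 expected. By rank per kilobase among the 10, Prg2 was the first or the second in 5 libraries and the last in control library 1, and Cpa3 was the first or the second in all 6.

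Part of the granulocyte-monocyte and neutrophil markers was low in the same library. Of the 11, 5 were lowest in control library 1 (S100a8, S100a9, Camp, Ltf and Fcnb), while Mpo, Prtn3, Ctsg, Ms4a3 and Fcgr3 were above every fasted library there and Elane was below 1 of them. S100a8, a calcium-binding protein abundant in neutrophils, was at 89.7, 568 and 757 CPM in control and 168, 244 and 275 CPM in fasted libraries. Camp, a neutrophil granule peptide, was at 21.8, 177 and 218 CPM in control and 66.5, 95.2 and 87.0 CPM in fasted libraries. The part of these markers in the result was not tested. S100a8 per kilobase was 5.77 to 13.7 times Prg2 in the 5 libraries other than control library 1. Of the 9 markers listed for eosinophils, 7 were above the 5-fold line and the receptors Il5ra and Ccr3 were not. Their summed level was 46.1 to 172 CPM in control and 57.3 to 89.6 CPM in fasted libraries.

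**Figure D3:**
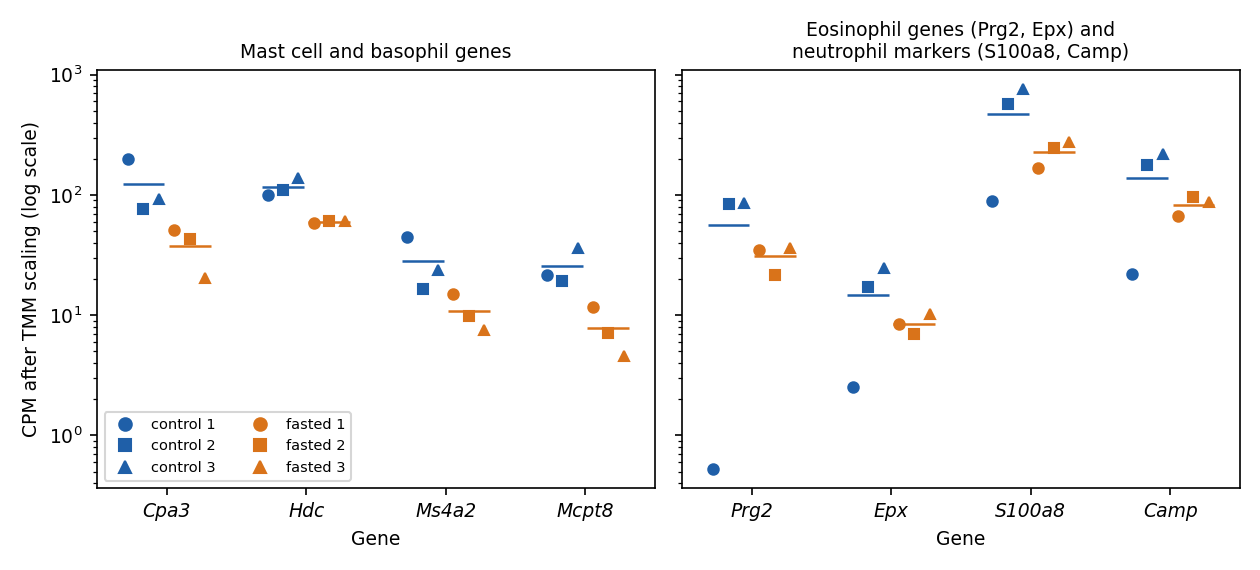
CPM after TMM scaling (log axis) by library, with a line at each group's mean (3 libraries). Left, Cpa3, Hdc, Ms4a2 and Mcpt8, the 4 members called lower, where every control point lies above every fasted point. Prss34, Fcer1a, Gzmb and Cma1, not shown, overlapped between the groups. Right, Prg2, Epx, S100a8 and Camp, where control 1 is the lowest of the 6 libraries. S100a8 and Camp are among the 5 of 11 granulocyte-monocyte and neutrophil markers lowest there, while 5 others were above every fasted library.

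The chains of the immunoglobulin E receptor were unequal in level. Per kilobase, the gamma chain Fcer1g, which serves other receptors too, was at 97.3 times the background on the mean of all libraries, the beta chain Ms4a2 at 10.6 and the alpha chain Fcer1a at 3.88. Fcer1a (ENSMUSG00000005339.10, chromosome 1, 173221284 to 173227214) had 28, 79 and 63 counts in control and 41, 66 and 40 in fasted libraries, where the background over its length would give 8.97 to 16.0 counts. All 6 libraries exceeded that expectation, and control and fasted libraries overlapped in CPM. Its log2 change was 0.08 (SE 0.43; edgeR adjusted p 0.912), and its sign turned with RLE factors and with DESeq2. Ms4a2 was 12.8 times Fcer1a per kilobase in control library 1 and 1.02 to 2.80 times in the others.

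Of the remaining proteases, Prss34 (ENSMUSG00000056399.2, chromosome 17, 25298394 to 25300165), another basophil protease, was not called. It had 49, 144 and 161 counts in control and 122, 122 and 100 in fasted libraries, or 2.15, 6.43 and 7.68 CPM against 7.84, 6.38 and 5.23 CPM. Control library 1 was the lowest of the 6 and the groups overlapped. With a log2 change of 0.26 (SE 0.38), its edgeR adjusted p was 0.655. A test of the difference between Prss34 and Mcpt8 was not made.

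Gzmb and Cma1, under the 5-fold line, were read at low counts. Gzmb had 91, 55 and 119 counts in control and 52, 7 and 55 in fasted libraries, with 12.9 to 23.0 expected from the background. In fasted library 2 the 7 counts (exact 95% Poisson interval 2.81 to 14.4) were under the 23.0 expected, and in the other 5 libraries the counts were above. Its log2 change of -0.89 (SE 0.56) did not pass (edgeR adjusted p 0.292). Cma1, the chymase of connective tissue mast cells, had 32, 9 and 28 counts in control and 14, 56 and 54 in fasted libraries, with 9.80 to 17.4 expected. Its log2 change of 1.09 (SE 0.54) did not pass (edgeR adjusted p 0.182), where tested genes under the 5-fold line had a median of 0.53. With library totals as the scale Cma1 was at 1.57, and with TMM factors of genes above the line at 1.60. Neither passed (edgeR adjusted p 0.0675 and 0.0643), where 11.8% and 13.7% of genes tested were called higher.

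Cma1, Mcpt8 and Gzmb belong to 1 cluster of granule serine protease genes on chromosome 14 (GRCm38, GENCODE M21). The 15 protein-coding Cma, Mcpt, Ctsg and Gzm genes from Cma1 (55941451 to 55944675) through Mcpt8 (56082166 to 56085273) to Gzmb (56258838 to 56262260), all 3 on the minus strand, span 320.8 kb. Of the 15, Mcpt8, Ctsg and Gzmc were above the 5-fold line. Ctsg, the cathepsin G of neutrophil granules and the direct neighbour of Mcpt8, was at 1692 times in control and 208 times in fasted libraries on average, and Mcpt8 at 46.7 and 9.12 times. Ctsg had a log2 change of -2.49 (SE 0.79) that did not pass (edgeR adjusted p 0.128). Gzmc was at 6.17 and 8.00 times, and the mast cell proteases Mcpt1, Mcpt2, Mcpt4 and Mcpt9 between 0.806 and 3.20 times on the mean of all libraries. These genes are related in sequence, and how reads matching several of them were counted is not given in the sources used here. Cpa3 and Mcpt8 each overlap a microRNA gene on the same strand (Mir7007 and Mir6949), and the other 8 genes overlap no other model.

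**Figure D4:**
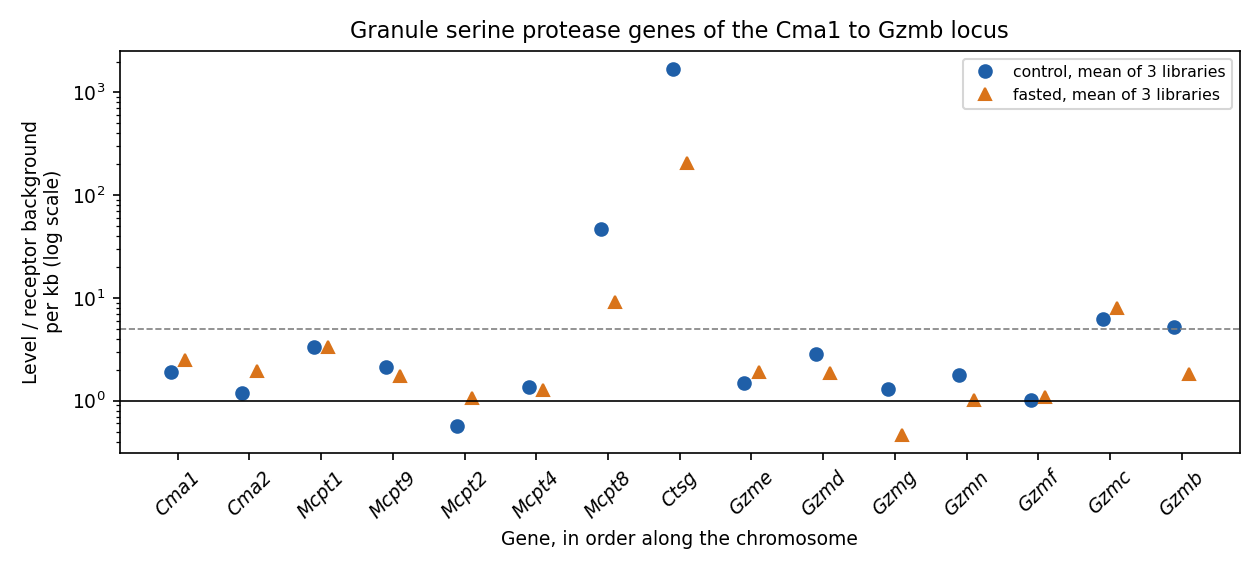
Mean level of the 15 granule serine protease genes of the chromosome 14 cluster over the receptor background per kilobase (log axis), in order along the chromosome, for control (circles) and fasted (triangles) libraries. Solid and dashed lines mark 1 and 5 times the background; Ctsg and Mcpt8 stand out in the middle of the cluster.

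Prg2 (chromosome 2, 84980461 to 84983632) lies 4.6 kb from Prg3, a second major basic protein gene, and Epx (chromosome 11, 87864000 to 87875536) 59.6 kb from Mpo, the neutrophil peroxidase. Prg3 had 26, 127 and 214 counts in control and 41, 51 and 76 in fasted libraries, again lowest in control library 1. Mpo was at 3176, 7395 and 10270 CPM in control and 2022, 1344 and 398 CPM in fasted libraries, a log2 change of -2.47 (SE 0.76, edgeR adjusted p 0.120). Unlike Epx, it was higher in control library 1 than in any fasted library.

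Related genes were read from lists written with earlier results of these data known. Over the 92 genes of 8 lists, 87 were tested, 15 were called lower and 0 higher in the fit of all tested genes, with a median of -0.44. All 15 lie above the 5-fold line, where 12.9% of genes were called lower (3.82% of all tested) with a median of -0.50; the counts below are to be read against these shares. In the restricted fit 0 of 56 passed (13 had an unadjusted edgeR p under 0.05) and the median was -0.22. DESeq2 and limma-voom called 0 higher too, but other scalings turned the balance: 3 lower and 5 higher with library totals, and 3 lower and 6 higher with TMM factors of genes above the line.

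Of the 18 signalling genes downstream of the immunoglobulin E receptor, 4 were called lower, and 17 of the 18 are above the 5-fold line (12.9% called lower there). The phospholipase gene Plcg2 had -1.07 (SE 0.26), the small GTPase gene Rac2 -1.04 (SE 0.25), the phosphatase gene Ptpn6 -0.88 (SE 0.24) and the kinase gene Btk -0.85 (SE 0.24), with edgeR adjusted p between 0.0359 and 0.0456. The list's median was -0.68, against -0.50 for all genes above the line, and Fcer1g itself was at -0.91 (SE 0.30, edgeR adjusted p 0.0715). Of the 8 lipid mediator genes, 6 of them above the line, 4 were called lower (12.9% of all genes above it). These were Lta4h, which makes leukotriene B4 (-1.44, SE 0.24, edgeR adjusted p 0.00891), Pla2g4a, which frees arachidonic acid (-1.20, SE 0.25), Ptgs1, a cyclooxygenase (-1.02, SE 0.25), and Alox5ap, the partner of 5-lipoxygenase (-0.95, SE 0.26), the last 3 with edgeR adjusted p between 0.0277 and 0.0423. These genes act in many myeloid cells, not only in mast cells and basophils.

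Of the 8 cytokine and growth factor receptor genes, Csf2rb (-1.16, SE 0.28) and Csf2ra (-1.10, SE 0.27), chains of the GM-CSF receptor, were called lower (edgeR adjusted p 0.0363 and 0.0349). Kit, the stem cell factor receptor, did not pass (-0.86, SE 0.28, edgeR adjusted p 0.0650), and at 241 times the background it was highest in control library 1, against 32.0 to 80.0 times in the others. Il1rl1, the interleukin 33 receptor, was also highest there (61.2 times, against 8.43 to 14.2 times), as was the vesicular monoamine transporter Slc18a2 (86.8 times, against 11.5 to 23.9 times); these 3 were singled out after their values were seen.

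Of the 16 transcription factor genes, Cebpe (-2.75, SE 0.57) and Cebpa (-1.26, SE 0.35), factors of granulocytes and myeloid progenitors, were called lower (edgeR adjusted p 0.0408 and 0.0465); 2 of 15 tested is near the 12.9% of genes above the line. Gata2 was at -0.84 (SE 0.30, edgeR adjusted p 0.0850) and Gata1 at -0.78 (SE 0.31, edgeR adjusted p 0.118). Of the 9 other eosinophil genes, Siglecf, a sialic acid receptor, was called lower (-1.46, SE 0.31, edgeR adjusted p 0.0296). Its counts were 768, 612 and 539 in the control and 263, 167 and 116 in the fasted libraries, so control library 1 was not low as it was for Prg2. Of the 10 basophil surface and cytokine genes, Cd63, a granule membrane protein, was called lower (-1.51, SE 0.25, edgeR adjusted p 0.00854). Il4 and Il13, cytokines of basophils, were at 3.03 and 0.355 times the background.

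Of the 11 mast cell granule genes, 0 passed in edgeR, and 8 were under the 5-fold line. The list's median was 0.29. An unadjusted edgeR p under 0.05 was found for 3, Srgn and Slc18a2 (lower) and Cma2 (higher, 1.38, SE 0.51, under the line). The 2 highest were Srgn, the granule proteoglycan core (-0.81, SE 0.26, edgeR adjusted p 0.0660), and Slc18a2 (-0.97, SE 0.29, edgeR adjusted p 0.0561). The tryptase genes Tpsab1, Tpsb2 and Tpsg1 were at 3.00, 1.30 and 0.695 times the background. Of the 12 granzyme and cytotoxic granule genes, Nkg7, a granule membrane protein of cytotoxic cells, was called lower (-2.09, SE 0.36, edgeR adjusted p 0.0248). The 6 natural killer cell markers were all under the 5-fold line, with a summed level of 11.3 to 15.3 CPM in control and 16.5 to 22.1 CPM in fasted libraries.

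**Figure D5:**
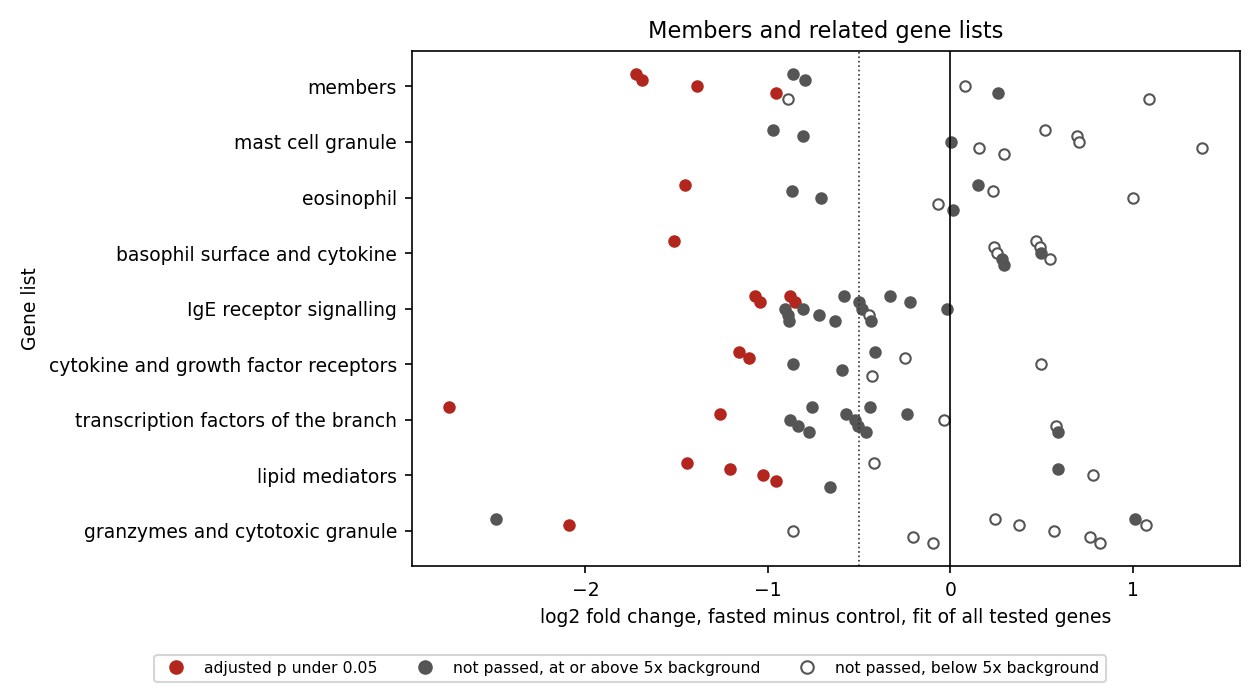
Log2 change of fasted minus control libraries in the fit of all tested genes, 1 point per gene, for the 10 genes and the 8 related lists. Red points passed (adjusted p under 0.05), open points lie under the 5-fold line, and the dotted line at -0.50 is the median of genes above that line; all red points lie left of that line.

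As a measure of likeness, each gene above the 5-fold line was correlated over the 6 libraries with the mean centred log2 CPM of the 7 such members. That profile was -0.61, 0.60 and 1.01 in the control and -0.02, -0.41 and -0.57 in the fasted libraries. Of 10634 genes compared, the 5 with the highest Pearson r included Rbm33 (0.991), Cybb (0.990), Mipep (0.981) and Herpud2 (0.977). With 6 points and so many genes, values of this size are a description only. Cpa3 and Ms4a2 were high and Prg2 and Epx low in control library 1, and all 4 are in the profile.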

How the data were processed

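Polyadenylated RNA of sorted progenitors was sequenced in 6 libraries. The authors deposited raw counts per gene with each gene's exon length; per the submitters' processing notes, HISAT2 2.2.1, featureCounts 2.0.1 and GRCm38 were used. Strand handling, multi-mapping and annotation release are not given in the sources used here. Columns were matched to libraries by their descriptions. Of 55487 identifiers, 54435 matched GENCODE M21 with version and length.

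Genes passing filterByExpr (36508) were scaled by TMM and tested with edgeR 4.0.16 (R 4.3.3), group as the only term, robust settings, Benjamini-Hochberg adjustment; SE is the log2 fold change divided by the root of F. Background was the summed receptor counts over their summed length per library, and the line at 5 times was set on the mean of all 6. Members and lists were chosen with earlier results of these data known. All 10 members were reported; from each list the called genes (up to 4) or else the 2 highest per kilobase, and the 5 most alike, of which 1 is not reported here. Alternatives were DESeq2 1.42.0, limma-voom (limma 3.58.1), other factors, filters, threshold, background subtraction, the replicate number as a block, and leaving out each library. The fits were tested on simulated data.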

Additional observations from a re-analysis of the deposited data

How the results depend on the processing

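The 10 genes' count of 4 called lower became 1 with library totals alone and 1 with TMM factors of the genes above the 5-fold line, and 0 in the fit of those genes (restricted), 0 after background subtraction and 0 in the restricted fit with the replicate block. Leaving out 1 library gave 0 to 5. It was 3 with the replicate block and 4 under the remaining alternatives, and no alternative called a member higher. Cpa3, Mcpt8, Hdc and Ms4a2 were below 0 in all 23 alternative fits and passed in 8, 13, 8 and 9 of them, with adjusted p of 0.000582 to 0.36, 8.91e-05 to 0.37, 0.000535 to 0.44 and 0.00198 to 0.46. These fits draw on the same 6 libraries, so their shared sign is no independent support. Ms4a2 entered the restricted ones through its control level. Over all genes, the number called lower ran from 0 in the restricted fit to 132 of 36508 with the replicate block and 4820 of 25183 with DESeq2. Without control library 1 Ms4a2 did not pass, without control library 2 Hdc, without control library 3 Cpa3, without fasted library 1 Cpa3 and Hdc, without fasted library 2 Cpa3 and Ms4a2, and without fasted library 3 no member did.

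The sign turned for genes that had not passed. Fcer1a was at -0.0927 with RLE factors, -0.0925 with DESeq2, -0.27 without control library 1 and -0.21 without fasted library 2. Prss34 was at -0.13 without control library 1, and up to 0.58 without others. Prg2 was at 0.96 with limma-voom, and without control library 3 in the restricted fit Prg2 was at 0.0643 and Epx at 0.31. In the restricted fit with the replicate block Prg2 was at 0.34 and Epx at 0.0884. The cause was not tested.

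The related lists' 15 called lower became 31 with DESeq2, 24 with RLE factors, 24 with no filter, 25 at an adjusted p under 0.1, 5 with the replicate block, 3 with library totals alone, 3 with TMM factors of genes above the 5-fold line, and 0 in the restricted fit, 0 with its replicate block and 0 after background subtraction. Their 0 called higher became 6 with those factors, 5 with library totals alone, 4 at an adjusted p under 0.1, 1 with no filter and 1 with a 1 CPM filter. Leaving out 1 library gave 0 to 23 lower and 0 to 3 higher. Over all genes, 1393 lower and 420 higher became 256 and 4988 with those factors.

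Same-numbered libraries did not pair: their deviations from the group means correlated at -0.16, 0.13 and -0.27 across genes, so the block result is given for completeness. Depth limits Fcer1a, Gzmb and Cma1, whose counts in every library were 119 or fewer.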
